A study of Mus musculus with 4 samples.

Results

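Capillary endothelial cells of the mouse brain were examined in single-cell RNA sequencing libraries of the ischemic hemisphere, 3 days after tMCAO, a temporary block of the middle cerebral artery that serves as a stroke model. They were chosen by their own transcripts. A barcode was kept with at least 500 unique molecular identifiers (UMIs, tags that mark single captured mRNA molecules), at least 250 detected genes and less than 20% of UMIs from mitochondrial genes. It was a member if it held at least 3 of the 7 endothelial genes Cldn5, Flt1, Pecam1, Cdh5, Ptprb, Itm2a and Ly6c1 and at least 1 of the 4 capillary genes Slco1a4, Abcb1a, Slco1c1 and Spock2, with no UMI of Ackr1, Selp, Csf1r, Kcnj8 or Acta2. This gave 3299 members of 60942 kept barcodes, 132 and 570 in the 2 Flox control libraries and 1217 and 1380 in the 2 Ms4a3 cKO libraries. The control libraries came from Htr2b flox/flox littermates and the cKO libraries from mice labelled Htr2b ERCre; Ms4a3-Cre, in which Htr2b, a serotonin receptor gene, was to be deleted in myeloid cells. The strain label was C57B6 for all, and the adult mice had surgery after tamoxifen and 3 further days without it. Ms4a3 marks granulocyte and monocyte progenitors, and with a deletion meant for myeloid cells endothelial cells were not its intended target. The label names both an ERCre and an Ms4a3-Cre and does not say which of them acted. Nor do the labels say whether a library held 1 animal or several. With 2 libraries a genotype, p-values measure only the spread between these libraries, which may be technical.

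Brain capillaries form the blood-brain barrier. Their endothelial cells are sealed to each other by tight junctions, take up little fluid by vesicles and move nutrients, hormones and drugs through dedicated transporters, a program that depends on Wnt signals from the brain tissue. After a stroke this barrier opens, the cells meet cytokines and low oxygen, and new vessels can sprout.

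The libraries differed in ways that bear on the members. Members held a median of 2928.5, 2639, 2153 and 2126.5 UMIs in Flox control 1, Flox control 2, Ms4a3 cKO 1 and Ms4a3 cKO 2, an order kept below, and their UMIs summed to 454010, 2027697, 3233245 and 3654545. Flox control 1 thus rests on the fewest cells and stood apart. Its log expression over genes correlated with the other libraries at r of 0.853 to 0.866, against 0.939 to 0.972 among the other 3. Predicted doublets made up 5, 7, 27 and 21 members and were kept. No barcode sequence was a member in more than 1 library, and 4 member sequences were also kept in another library.

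The members carried the label's markers, which is a description since these genes chose them. Flt1, the VEGF receptor that also marks brain endothelium, had a UMI in 97.4 to 99.0% of members, and Slco1a4, an organic anion transporter of the barrier, in 82.8 to 96.2%. In microglia (barcodes with at least 3 of 6 microglial markers, which should lack both) the shares were 5.74 to 11.2% and 0.548 to 7.86%. Microglia were also deeper, with a median of 5638 to 7078 UMIs per library. All 4 capillary genes were present together in 85.6, 64.4, 62.3 and 76.2% of members. The claudin of brain endothelium, Cldn5, was detected in only 15.9, 35.1, 25.9 and 24.4% of members. Near the threshold, 243 members held exactly 3 endothelial genes, with a median of 1099 UMIs, and 302 barcodes were left out for holding exactly 2, with a median of 4952.5. By library the median of those left out was 10862, 8066, 1906 and 1381 UMIs, far higher in the controls. A further 123 barcodes met every other condition but held no capillary gene.

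The highest levels were those of Igfbp7, Ly6c1, Selenop, App and Tmsb4x, in CPM, a gene's UMIs per 1000000 UMIs summed over a library's members, not corrected for transcript length. Igfbp7, a secreted protein of vessel walls, ranged from 4632 to 12741 CPM. Genes that the rule did not use but that were at least 30 times as high in members as in all other kept barcodes in every library included Slc19a3, a thiamine transporter, Sema3g and Sema3c, which are semaphorins, Sox17, a transcription factor of arterial identity, Foxq1, a transcription factor of brain endothelium, and Flt4, another VEGF receptor. Slc19a3 was at least 47.2 times and Sox17 at least 37.4 times as high. Since the cells were chosen on measured values of the same libraries, these ratios describe the members and were not tested. Endothelial barcodes with Ackr1 or Selp, which the rule leaves out, also held the label's markers. Slco1a4 stood at 1830 (from 11 cells), 973, 1353 and 1842 CPM there, against 3403, 1753, 2812 and 3697 CPM in members. Slco1c1 stood at 1224, 574, 398 and 474 CPM there, against 2718, 1772, 1752 and 2007 CPM in members.

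Transcripts of other cell types were also present in the members. The summed CPM of 9 microglial markers was 293, 455, 391 and 515, and that of 8 oligodendrocyte markers 94.7, 3535, 895 and 1517. Monocyte and macrophage markers (9 genes) were higher than the microglial ones in every library, at 782, 1810, 1190 and 1056 CPM. Astrocyte markers (9 genes) stood at 513, 869, 743 and 814 CPM, and choroid plexus markers (6 genes) at 308, 1867, 1294 and 1634 CPM. Neutrophil markers (8 genes) stood at 4.41, 32.5, 510 and 45.7 CPM. Pericyte markers (8 genes, with Kcnj8 at 0 by the rule) stood at 1489, 827, 869 and 974 CPM, most of it Rgs5. Fibroblast markers (7 genes) summed to 1907 and 2030 CPM in the controls against 213 and 166 CPM in the cKO libraries. Smooth muscle markers (6 genes) stayed between 4.41 and 23.8 CPM, and hemoglobin and other red blood cell genes (5 genes) reached 59.4 CPM in Ms4a3 cKO 1 and at most 1.97 CPM elsewhere.

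The gene targeted in this study was nearly absent from the members. Htr2b gave 0, 24, 6 and 3 UMIs, or 0, 11.8, 1.86 and 0.821 CPM, and in Flox control 1 the absence of any UMI allows up to 6.61 CPM by a floor of 3 counts (counting error only). The share of members with an Htr2b UMI was 0, 3.16, 0.493 and 0.217%, against 21.2 to 28.8% in microglia, and within the members Flox control 2 was the highest library. Htr2b was too low to be tested. Ms4a3, the gene named in the label Ms4a3-Cre, gave no UMI in any member.

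The first comparison asked whether capillary cells made up a different share of the recovered barcodes. Of kept barcodes, 0.977% and 3.45% were members in the Flox controls, as were 7.96% and 8.83% in the cKO libraries. Both cKO libraries lay above both controls, a ratio of means of 3.79, and the controls also lay far apart from each other. The exact two-sided permutation test gave p = 0.333, the smallest that 2 libraries against 2 can give. The other vessel cells that were counted lay in the same order of genotypes: endothelial barcodes with Ackr1 or Selp made up 0.0814, 0.751, 2.48 and 1.48%, and pericytes 0.200, 0.436, 0.962 and 0.889%. Smooth muscle cells and fibroblasts were not counted. Among barcodes with at least 3 endothelial genes, the members' share was 68.0, 52.7, 61.7 and 65.6% and the groups overlapped (exact permutation p = 1). These are shares of dissociated cells and depend on how many cells of every other type were recovered.

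**Figure D1:**
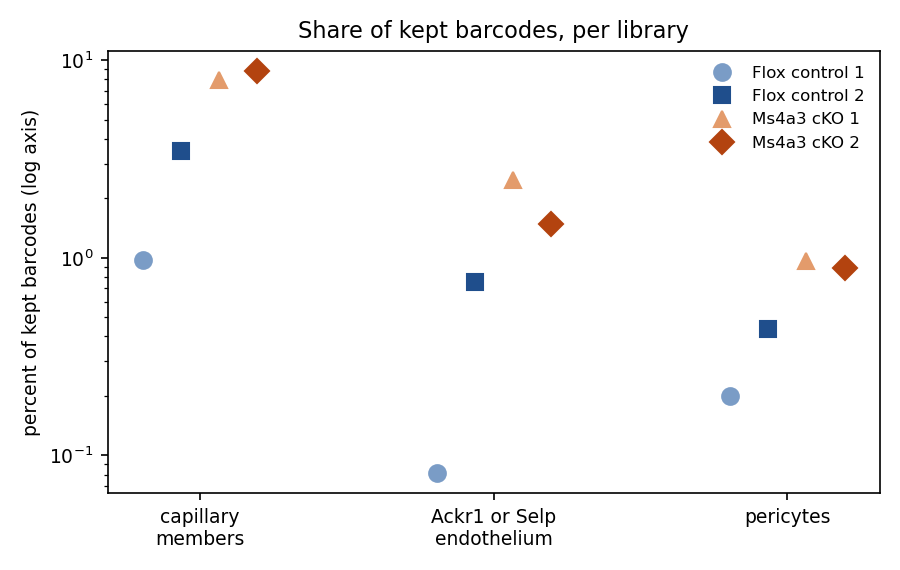
Share of kept barcodes (percent, log axis) of capillary members, Ackr1 or Selp endothelium and pericytes, 1 point per library, blue for Flox control and orange for Ms4a3 cKO. In all 3 classes both cKO points lie above both control points, and Flox control 1 is the lowest, at 0.977% for the capillary members.

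UMIs were then summed over the members of each library and the genotypes compared gene by gene. With edgeR's quasi-likelihood test and Benjamini-Hochberg adjustment over 10925 genes, 6 genes passed an adjusted p of 0.05, which is 0.0549% of those tested: Fkbp5 and Doc2b rose in the cKO libraries, and Col1a1, Col1a2, Col3a1 and Nrep fell. Without adjustment 887 genes had p below 0.05. In 22.3% of the tested genes both cKO libraries lay above both controls, and in 19.2% both lay below. The number of calls depended on single libraries. Leaving out Flox control 1 gave 260 calls and leaving out Flox control 2 gave 321, each with all 6 genes among them. Leaving out Ms4a3 cKO 1 gave 0 calls (195 at an unadjusted p below 0.05), and leaving out Ms4a3 cKO 2 gave 1, which was none of the 6. DESeq2 called 74 genes, and a stricter choice of members (at least 4 endothelial and 2 capillary genes) left 0, with 760 at an unadjusted p below 0.05.

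Fkbp5 encodes a co-chaperone of the glucocorticoid receptor and is among the genes most readily induced by glucocorticoids. It stood at 37.8 and 40.4 CPM in the controls and at 258 and 251 CPM in the cKO libraries. Members' CPM in genotype comparisons are scaled by TMM, edgeR's correction for library composition. Those of microglia, of other barcodes and of members without fibroblast genes are not scaled. The groups were far apart and each pair of libraries nearly coincided. The log2 ratio of cKO to control, as edgeR fitted it, was 2.69 with a standard error (SE) of 0.20 and an adjusted p of 0.0267 (n = 2 per genotype). The transcript was spread over the cells, in 12 of 132 and 58 of 570 control members and in 461 of 1217 and 541 of 1380 cKO members. Microglia showed the same direction, with 186 and 214 against 766 and 680 CPM, a log2 ratio of 1.71 (with SE 0.15). The difference between the cell types was 1.03 (SE 0.24, adjusted p = 0.463).

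Doc2b, a calcium sensor of vesicle fusion, went from near absence to a clear level. Its UMIs numbered 1 and 6 in the controls and 341 and 576 in the cKO libraries, or 2.36, 2.85, 104.8 and 158 CPM, a log2 ratio of 5.55 (with SE 0.42, adjusted p = 0.0267). It was found in 242 and 398 cKO members. Endothelium with Ackr1 or Selp, which no member belongs to, held 0 (from 11 cells) and 2.78 CPM in the controls and 54.8 and 125 CPM in the cKO libraries, whereas microglia stayed at or below 1.28 CPM in every library. At that low level the microglial log2 ratio was 4.24 (SE 0.77), and the difference between the cell types had an adjusted p of 0.863. Nrep, a small protein linked to cell migration, stood at 288 and 212 CPM in the controls and at 34.7 and 34.8 CPM in the cKO libraries. Its log2 ratio was -2.83 (SE 0.23, adjusted p = 0.0303), and the groups did not overlap. It was found in 63 of 132 and 219 of 570 control members.

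The 3 collagen genes encode the fibrillar collagens of connective tissue and are defining products of fibroblasts. Col1a1 stood at 656 and 477 CPM in the controls against 11.985 and 19.5 CPM in the cKO libraries, a log2 ratio of -5.15 (with SE 0.34, adjusted p = 0.0265). Col1a2 fell by 3.85 and Col3a1 by 4.16 on the log2 scale (SE 0.22 and 0.33, adjusted p = 0.0213 and 0.0292). The same genes also fell outside the members. In microglia Col1a1 stood at 22.3 and 104.5 against 0.714 and 1.47 CPM. Log2 ratios there were -5.90, -4.87 and -5.65 for Col1a1, Col1a2 and Col3a1 (SE 0.85, 0.97 and 1.24). No difference from the members passed (adjusted p = 0.93, 0.919 and 0.815). Over all other kept barcodes Col1a1 stood at 273 and 560 against 14.99 and 19.8 CPM. How far the calls reflect capillary cells was not tested. The members' UMIs of the 3 genes came from very few members. In Flox control 1, 1 barcode with 16227 UMIs held 794 of the 808 UMIs of the 3 genes, and in Flox control 2, 16 members held 3328 of 3475. In the cKO libraries 4 and 5 members held 238 of 285 and 313 of 376. Barcodes with a UMI of the fibroblast genes Dcn, Lum or Pdgfra made up 4.55, 5.96, 2.05 and 2.54% of members. Without them Col1a1 stood at 4.77, 18.4, 0.641 and 0.284 CPM, with a log2 ratio of -4.80 (adjusted p = 0.384). Every library but Flox control 2 was then under the floor of 3 counts, so this ratio rests on very few UMIs. The log2 ratio of Col1a2 was -1.92 (adjusted p = 0.447) and that of Nrep -2.67 (adjusted p = 0.0814), and Col3a1 was too low to test. Fkbp5 and Doc2b were the only 2 genes called there (both adjusted p = 0.046). This set of members was chosen after the data were seen.

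The remaining genes with the smallest p-values did not pass the adjustment, and their values follow. Ccn2, a matrix-associated protein that is a standard target of YAP signalling and is also listed among genes that dissociation induces, stood at 153 and 191 CPM against 1174 and 1513, a log2 ratio of 2.95 (with SE 0.27, adjusted p = 0.0533). It was present in 614 of 1217 and 819 of 1380 cKO members and in 20 of 132 and 102 of 570 control members. Nek7, a kinase of the mitotic spindle and of the inflammasome, stood at 241 and 225 against 1006 and 839 CPM. Plxna2, a semaphorin receptor, stood at 271.5 and 227 against 804 and 762 CPM. Log2 ratios were 1.99 and 1.66 (SE 0.23 and 0.22), with adjusted p of 0.129 and 0.194. In both genes the libraries of a genotype lay close together and the groups did not overlap. The gene Cpm, which encodes carboxypeptidase M, had a log2 ratio of 1.89 (with SE 0.25, adjusted p = 0.194). Lum, a proteoglycan of fibroblasts, had one of -2.90 (with SE 0.30, adjusted p = 0.071), with 24 UMIs in a single member of Flox control 1.

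**Figure D2:**
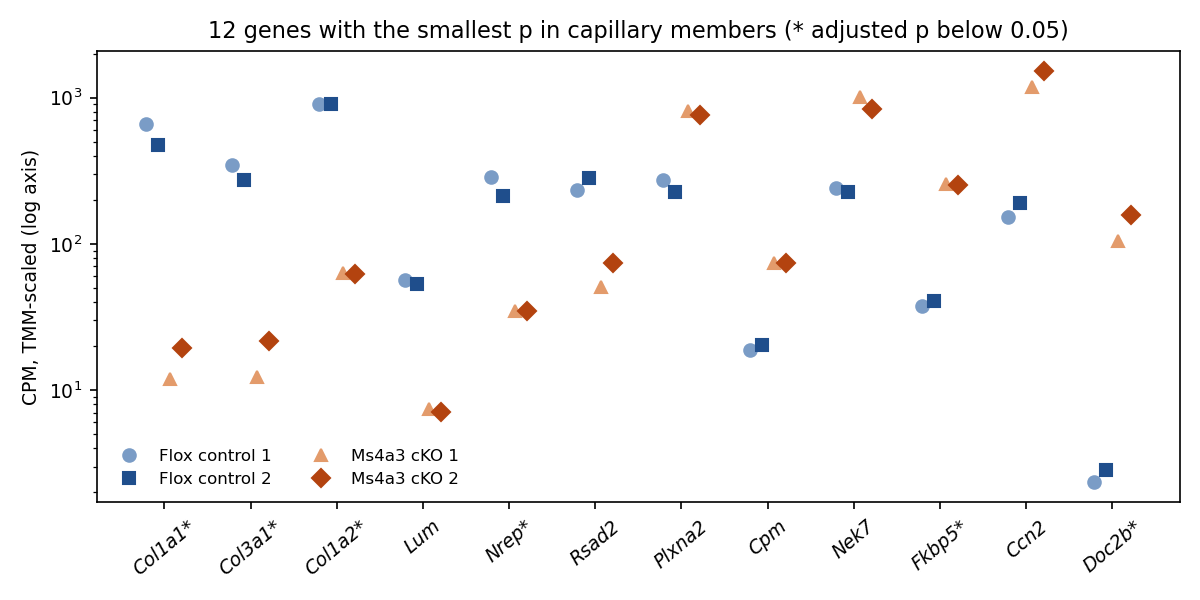
Level (CPM with TMM scaling, log axis) of the 12 genes with the smallest p among those with a mean of at least 20 CPM, 1 point per library; an asterisk marks an adjusted p below 0.05. For every gene both blue control points lie on the same side of both orange cKO points, from Col1a1 at 656 and 477 against 11.985 and 19.5 CPM to Doc2b at 2.36 and 2.85 against 104.8 and 158 CPM.

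**Figure D3:**
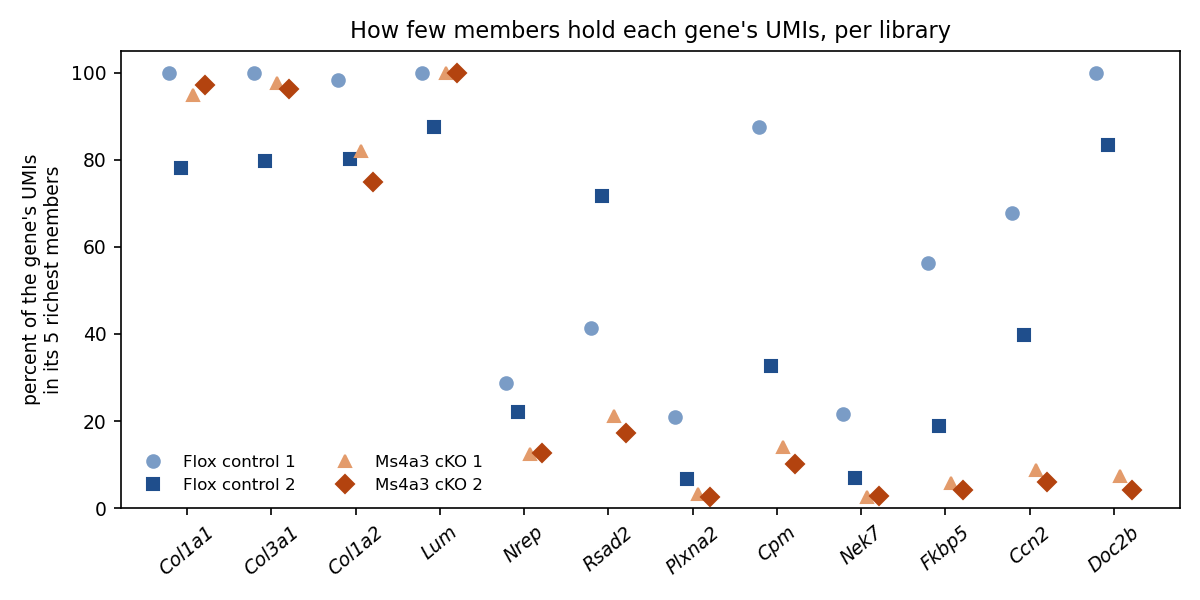
Percent of a gene's UMIs held by the 5 members richest in it, per library, for the same 12 genes. In Col1a1, Col3a1, Col1a2 and Lum the 5 richest members hold most UMIs in every library, whereas in Nek7, Plxna2 and Nrep they hold under 30%; the controls' high points for Doc2b rest on 1 and 6 UMIs.

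Gene lists of the barrier and of vessel biology were then read against all tested genes, whose median log2 ratio was -0.01. Members and lists were picked with results of these data known, so the lists are described by counts and medians. Counts of genes higher or lower without overlap stand beside 22.3% higher and 19.2% lower among all tested genes. Beside Fkbp5, no gene of the 27 lists passed the test.

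Junction genes lay on both sides of 0. Of 20 tight and adherens junction genes, 5 had both cKO libraries above both controls and 3 below, with a median of -0.02, against 22.3% and 19.2% of all tested genes. Tjp1, the scaffold protein ZO of tight junctions, stood at 925, 554, 663 and 709.8 CPM and the groups overlapped. Ctnnb1, which encodes beta-catenin of junctions and Wnt signalling, stood at 2044 and 1361 against 845 and 917 CPM (log2 ratio -0.95 with SE 0.29, adjusted p = 0.496). Pard3, a polarity protein, went the other way, at 127.5 and 131.5 against 307 and 316.5 CPM (log2 ratio 1.26 with SE 0.19, adjusted p = 0.213), and Esam, an adhesion molecule of endothelial junctions, had a log2 ratio of 0.44 (with SE 0.23, adjusted p = 0.672).

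Transporter genes held the members' highest barrier transcripts. Slco1a4 stood at 3647, 1688, 2794 and 3705 CPM, Slco1c1, the thyroxine carrier, at 2913, 1706, 1741 and 2012 CPM, and the taurine carrier Slc6a6 at 3433, 2279, 1969 and 3789.6 CPM. Slco1a4 and Slco1c1 helped to choose the members, so their levels are a description. In Slc6a6, which the rule did not use, the controls lay further apart than the genotypes. Of 28 tested transporters, 3 lay higher and 5 lower without overlap, beside 22.3% and 19.2% of all genes. Their median of -0.09 was -0.45 without Flox control 2 and above 0 with either Flox control 1 (0.16) or Ms4a3 cKO 1 (0.11) left out. Slc16a1, the lactate and ketone carrier, stood at 1638 and 891 against 485 and 474 CPM, a log2 ratio of -1.39 (with SE 0.34, adjusted p = 0.391). Slc38a5, a glutamine carrier, had one of -1.38 (with SE 0.35, adjusted p = 0.407), and Slc1a1, a glutamate carrier, one of 0.88 (with SE 0.29, adjusted p = 0.557). Slc2a1, the glucose carrier of the barrier, stood at 1601 and 720.3 against 1907 and 1964 CPM (log2 ratio 0.75 with SE 0.41, adjusted p = 0.678).

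Receptors that carry cargo across the cell, and caveolae, gave 4 of 19 higher and 3 lower, with a median of 0.07 (-0.06 without Flox control 2). The insulin-like growth factor receptor Igf1r stood at 1761 and 1199 against 2278 and 2646 CPM (log2 ratio 0.74 with SE 0.30, adjusted p = 0.612), and Lrp8, a receptor for apolipoprotein E and reelin, had a log2 ratio of 0.49 (with SE 0.18, adjusted p = 0.592). The transferrin receptor Tfrc stood at 699, 319, 279.7 and 774 CPM, so that the cKO libraries bracketed both controls. In the Wnt pathway 6 of 22 genes lay higher and 2 lower, beside 22.3% and 19.2% of all genes. Their median of -0.07 was -0.34 without Flox control 2, and it turned positive when Flox control 1 (0.41) or Ms4a3 cKO 1 (0.15) was left out. Lrp5, a Wnt co-receptor, had a log2 ratio of 0.87 (with SE 0.24, adjusted p = 0.454).

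**Figure D4:**
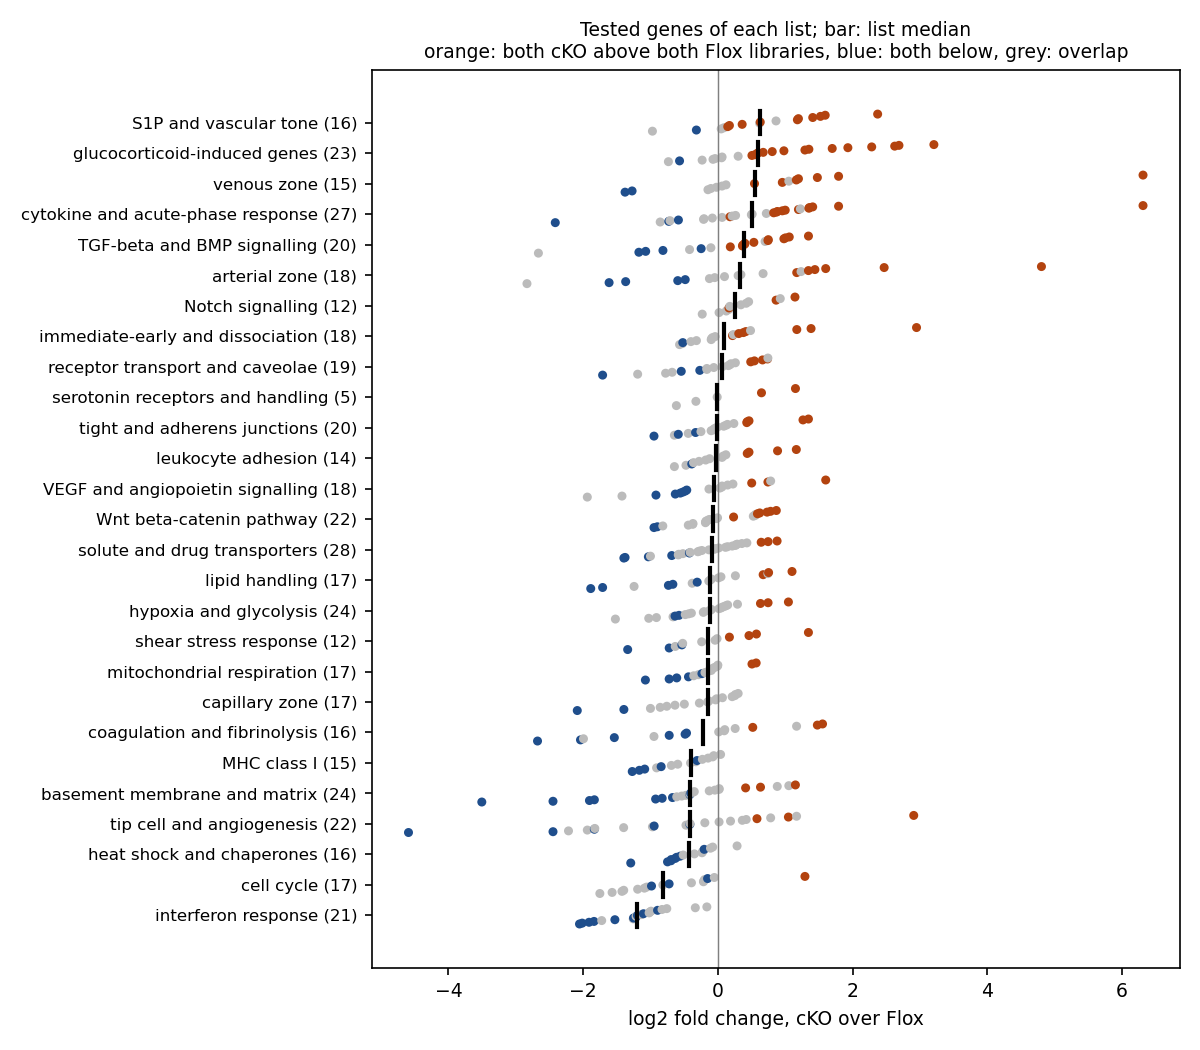
Log2 ratio (cKO over Flox) of every tested gene in the 27 lists, ordered by list median (black bar), with the number of tested genes in brackets; orange points had both cKO libraries above both controls, blue points both below, grey points overlapped. The interferon list lies furthest to the left, with a median of -1.19, and the glucocorticoid and vascular tone lists furthest to the right, at 0.59 and 0.62.

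Growth factor genes were split. VEGF and angiopoietin genes gave 3 of 18 higher and 6 lower, beside 22.3% and 19.2% of all genes (median -0.05). The VEGF receptor Flt1, which helped to choose the members, stood at 5460.4, 3383, 4604 and 4623 CPM. Kdr, the main signalling VEGF receptor, stood at 1067, 861, 803 and 954 CPM, with the groups overlapping. Sema3g stood at 59.0 and 127 against 289 and 309 CPM (log2 ratio 1.60 with SE 0.34, adjusted p = 0.301), and the co-receptor Nrp1 at 314 and 185 against 131.5 and 127 CPM (log2 ratio -0.92 with SE 0.28, adjusted p = 0.496). Tip cell genes, which mark sprouting vessel ends, had a median of -0.41 over 22 genes, with 3 higher and 5 lower. Cd34, a sialomucin of tip cells, stood at 1544 and 1334 against 837 and 656 CPM (log2 ratio -0.95 with SE 0.26, adjusted p = 0.44). Aplnr, the apelin receptor, gave 2, 42, 1 and 3 UMIs (log2 ratio -4.59 with SE 0.81, adjusted p = 0.265), and most of its UMIs came from Flox control 2. The growth factor binding protein Igfbp3 gave 1 and 153 UMIs in the controls and 1399 and 1001 in the cKO libraries (log2 ratio 2.91 with SE 0.78, adjusted p = 0.433). The tip cell median was 0.45 without Flox control 2.

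In Notch signalling 3 of 12 genes lay higher and 0 lower (median 0.26), the former close to the 22.3% of all genes. The receptor Notch1 stood at 106 and 202 against 389 and 316 CPM (log2 ratio 1.14 with SE 0.32, adjusted p = 0.461). TGF-beta and BMP genes gave 12 of 20 higher and 4 lower, beside 22.3% and 19.2% of all tested genes. Their median was 0.39, between 0.35 and 0.43 with each library left out and 0.21 after thinning every cell to 1000 UMIs. Among them, Eng, the co-receptor endoglin, stood at 120 and 99.2 against 224 and 210.1 CPM (log2 ratio 1.00 with SE 0.20, adjusted p = 0.286), and Id2, a transcriptional target of BMP, at 75.5 and 109 against 165 and 231 CPM (log2 ratio 1.06 with SE 0.27, adjusted p = 0.42). The signal transducer Smad5 had a log2 ratio of -0.81 (with SE 0.21, adjusted p = 0.425). Flow-responsive genes had a median of -0.14 over 12 genes (0.08 without Flox control 2), where the transcription factor Klf2 had a log2 ratio of -0.53 (with SE 0.29, adjusted p = 0.678).

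Genes of the inflammatory response did not move as 1 group. The cytokine and acute-phase list gave 12 of 27 higher and 3 lower, beside 22.3% and 19.2% of all genes, with a median of 0.51 that was 0.96 without Flox control 2 and 0.83 without Ms4a3 cKO 2. Ch25h, which makes an antiviral oxysterol, stood at 271.5 and 436 against 1518 and 956 CPM (log2 ratio 1.79 with SE 0.35, adjusted p = 0.286), and Il1r1, the receptor of interleukin 1, at 179 and 172 against 334 and 346 CPM (log2 ratio 0.96 with SE 0.19, adjusted p = 0.286). Lcn2, an acute-phase protein that neutrophils also make in quantity, gave 1 and 4 UMIs in the controls and 908 and 164 in the cKO libraries (log2 ratio 6.31 with SE 1.28, adjusted p = 0.286). The neutrophil markers in the members were also highest in Ms4a3 cKO 1, at 510 CPM, and their part in the Lcn2 value was not tested. Of 14 leukocyte adhesion genes, 4 lay higher and 1 lower (median -0.03, and 0.45 without Flox control 2). Icam1 gave 3, 50, 161 and 125 UMIs (log2 ratio 1.16 with SE 0.46, adjusted p = 0.598), and Vcam1 stood at 21.2, 129.6, 96.8 and 81.2 CPM, with the groups overlapping.

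Interferon-stimulated genes lay low in the cKO libraries as a list. Of 21 tested, 10 had both cKO libraries below both controls and 0 above, against 19.2% and 22.3% of all genes, and 0 passed edgeR's adjusted test (8 at an unadjusted p below 0.05). Their median log2 ratio was -1.19. It shrank to -0.09 without Flox control 1 and was -1.88 without Flox control 2. Rsad2, the antiviral protein viperin, stood at 234 and 282.5 against 50.7 and 74.3 CPM (log2 ratio -2.05 with SE 0.26, adjusted p = 0.185). In Flox control 2, 5 members held 427 of its 595 UMIs. The guanylate-binding proteins Gbp2 and Gbp3 stood at 460.3 and 159 against 95.6 and 72.1 CPM and at 326 and 76.0 against 44.6 and 48.6 CPM. Their log2 ratios were -1.84 and -2.01 (SE 0.50 and 0.64, adjusted p = 0.44 and 0.52), and in both Flox control 1 was far above Flox control 2. Bst2, which tethers virus particles, had one of -1.21 (with SE 0.36, adjusted p = 0.482). Ifit1 stood at 562, 107, 102 and 166.5 CPM, so that Flox control 2 lay within the range of the cKO libraries. The chemokine Cxcl10, counted in the cytokine list, had a log2 ratio of -2.41 (with SE 0.42, adjusted p = 0.265), with all 32 of its UMIs in Flox control 1 from 2 members.

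Promoters of these genes are shown because interferon-stimulated genes share a sequence that interferon-activated transcription factors bind. The letters GAAA, any 2 letters and GAAA again, or their reverse complement, were searched on both strands of the 250 bases before the start site (RefSeq, GRCm38.p6), where matches may overlap each other. They were found in 12 of the 17 interferon-list genes with an entry (70.6%) and in 936 of 27025 genes of the table (3.46%). Of the 4 interferon genes with the smallest p, all 4 had a match, in capitals in the following stretches of 120 bases, written 5′ to 3′ in the direction of the gene. They lie at chr12:26456543-26456662 (minus strand, Rsad2), chr3:142620514-142620633 (plus strand, Gbp2), chr8:71537567-71537686 (minus strand, Bst2) and chr3:142559915-142560034 (plus strand, Gbp3).
Rsad2: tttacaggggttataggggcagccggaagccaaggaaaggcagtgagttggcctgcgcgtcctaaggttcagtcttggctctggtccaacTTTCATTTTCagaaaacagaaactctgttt
Gbp2: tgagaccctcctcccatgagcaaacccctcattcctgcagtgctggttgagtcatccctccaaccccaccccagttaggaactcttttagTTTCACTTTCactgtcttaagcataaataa
Bst2: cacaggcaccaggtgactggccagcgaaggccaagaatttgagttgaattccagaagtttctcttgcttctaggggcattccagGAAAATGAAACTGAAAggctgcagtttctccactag
Gbp3: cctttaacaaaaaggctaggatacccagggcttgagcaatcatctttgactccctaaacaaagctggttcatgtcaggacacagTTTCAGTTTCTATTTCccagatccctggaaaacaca
The match nearest the start site lay 110 bases before it in Rsad2, 49 in Gbp2, 114 in Bst2 and 29 in Gbp3. Gbp3 has another entry in the table, which held no match. A match describes letters and not a bound site.

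MHC class I genes, which present peptides and are also raised by interferons, gave 0 of 15 higher and 5 lower, beside 22.3% and 19.2% of all genes. Their median of -0.41 turned to 0.33 without Flox control 1. B2m, their common light chain, stood at 5253, 1374, 1433 and 2085 CPM, so that Flox control 1 stood alone (log2 ratio -0.91 with SE 0.62, adjusted p = 0.75).

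Glucocorticoid-induced genes lay high in the cKO libraries. Of 23 tested, 15 had both cKO libraries above both controls and 1 below, against 22.3% and 19.2% of all genes. Their median of 0.59 stayed between 0.55 and 0.80 with each library left out. Only Fkbp5 passed the test. Sult1a1, a sulfotransferase, stood at 85.0 and 51.3 against 196 and 431 CPM (log2 ratio 2.28 with SE 0.46, adjusted p = 0.286). The metallothionein Mt2 stood at 44.9 and 54.1 against 466.5 and 160 CPM (log2 ratio 2.62 with SE 0.54, adjusted p = 0.286), and the cell cycle inhibitor Cdkn1a at 96.8 and 157 against 359 and 281 CPM (log2 ratio 1.29 with SE 0.28, adjusted p = 0.33). Sgk1, a kinase of salt balance, had a log2 ratio of 0.98 (with SE 0.23, adjusted p = 0.37). The groups did not overlap in these 4, whereas the abundant targets Glul, Nfkbia and Dusp1 overlapped; Glul stood at 2514, 1977, 2034 and 3495 CPM.

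The medians of the other stress lists lay nearer 0. Heat shock and chaperone genes gave 0 of 16 higher and 8 lower, beside 22.3% and 19.2% of all genes. Their median was -0.43, between -0.45 and -0.35 with each library left out and -0.23 after thinning. Hsph1 stood at 51.9 and 55.6 against 26.1 and 18.1 CPM (log2 ratio -1.29 with SE 0.29, adjusted p = 0.363), the mitochondrial chaperonin Hspd1 at 144 and 168 against 98.0 and 96.5 CPM (log2 ratio -0.69 with SE 0.19, adjusted p = 0.444), and the co-chaperone Dnaja1 had a log2 ratio of -0.69 (with SE 0.23, adjusted p = 0.557). Immediate-early genes, which dissociation also induces, gave 7 of 18 higher and 1 lower (median 0.09), and Fos stood at 1438, 1213, 1142 and 1329.9 CPM, with the groups overlapping. Hypoxia and glycolysis genes had a median of -0.12 over 24. The oxygen-sensitive factor Epas1 stood at 2722 and 1778 against 3099.6 and 3868 CPM (log2 ratio 0.63 with SE 0.34, adjusted p = 0.667), the peptide hormone Adm had a log2 ratio of 1.05 (with SE 0.41, adjusted p = 0.598), and the glycolytic enzyme Pgam1 one of -0.64 (with SE 0.18, adjusted p = 0.465). Nuclear-encoded respiratory genes had a median of -0.15 over 17.

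Vascular tone genes gave 10 of 16 higher and 1 lower, beside 22.3% and 19.2% of all genes. Their median was 0.62, from 0.32 without Ms4a3 cKO 1 to 0.83 without Flox control 2. Ace, the angiotensin-converting enzyme, stood at 16.5 and 47.5 against 199 and 184 CPM (log2 ratio 2.37 with SE 0.38, adjusted p = 0.249). Edn1, the vasoconstrictor endothelin, stood at 222 and 386 against 698.5 and 938 CPM (log2 ratio 1.41 with SE 0.33, adjusted p = 0.375), and Ednrb, its receptor, had a log2 ratio of 1.52 (with SE 0.48, adjusted p = 0.511). The nitric oxide synthase of endothelium, Nos3, stood at 172, 169.5, 195.5 and 189 CPM. In all of these the cKO libraries lay above the controls.

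Coagulation genes were divided, with 3 of 16 higher and 6 lower, beside 22.3% and 19.2% of all genes. Their median of -0.23 turned to 0.31 without Flox control 2. Plat, the tissue plasminogen activator that dissolves clots, stood at 165 and 321 against 628 and 829 CPM (log2 ratio 1.55 with SE 0.36, adjusted p = 0.363), and Vwf, the platelet-binding factor, at 75.5 and 130.1 against 318 and 277 CPM (log2 ratio 1.48 with SE 0.28, adjusted p = 0.286). Thbd, the anticoagulant thrombomodulin, had a log2 ratio of -0.72 (with SE 0.25, adjusted p = 0.571). F3, tissue factor, had one of -2.68 (with SE 0.42, adjusted p = 0.248), but all 68 of its UMIs in Flox control 1 came from 1 member, and without members holding Dcn, Lum or Pdgfra the change was 1.32. Basement membrane and matrix genes gave 3 of 24 higher and 9 lower, beside the same shares of all genes (median -0.41, and -0.06 without Flox control 2). The fibroblast markers given above were also lower in the cKO members, and their part in this list was not tested. The laminin Lamb1 gave 28, 308, 100 and 38 UMIs (log2 ratio -2.45 with SE 0.58, adjusted p = 0.381), and Sparc, a matrix protein of high level, stood at 3194, 6368, 3399.6 and 2871 CPM (log2 ratio -0.61 with SE 0.41, adjusted p = 0.749).

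Among 17 lipid genes 3 lay higher and 5 lower, beside 22.3% and 19.2% of all genes (median -0.11, and 0.39 without Flox control 2). Pltp, a phospholipid transfer protein, stood at 644.5 and 309 against 84.8 and 169 CPM (log2 ratio -1.89 with SE 0.47, adjusted p = 0.401). The lipase Pnpla2 stood at 40.1 and 35.6 against 77.4 and 82.3 CPM (log2 ratio 1.10 with SE 0.23, adjusted p = 0.286). Of 15 serotonin genes 5 were high enough to test. Ddc, which makes serotonin and dopamine from their precursors, stood at 482 and 211 against 551 and 959 CPM (log2 ratio 1.15 with SE 0.46, adjusted p = 0.602), and the receptor Htr2a at 18.9 and 15.2 against 27.97 and 23.3 CPM (log2 ratio 0.65 with SE 0.34, adjusted p = 0.662).

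Zone genes describe where along the vessel tree a cell lies. Of 17 genes of the capillary zone, 0 lay higher and 2 lower (median -0.15), and of 18 arterial genes 6 lay higher and 4 lower (median 0.32), the latter near the 22.3% and 19.2% of all genes. The capillary-zone median ran from -0.86 without Ms4a3 cKO 2 to 0.04 without Flox control 1, and the arterial median was -0.00066 after thinning. The arterial kinase Bmx stood at 44.9 and 51.3 against 127 and 139 CPM (log2 ratio 1.44 with SE 0.21, adjusted p = 0.213). Of 15 venous genes 7 lay higher and 2 lower (median 0.54, but 0.19 without Ms4a3 cKO 1, 0.92 without Flox control 2 and 1.03 after thinning), with Vwf, Ch25h, Il1r1 and Lcn2 as above. The members were then split by genes, counting a member in a subset with at least 2 of its list. Arterial-side members (Bmx, Gkn3, Sema3g, Efnb2, Hey1, Vegfc) made up 12.1, 18.2, 18.2 and 20.7%, against 0.219 to 0.549% of microglia. Venous-side members (Slc38a5, Nr2f2, Vwf, Icam1, Ctsc, Lcn2) made up 25.8, 25.1, 33.8 and 26.4%, below the 35.5 to 42.2% of microglia. The genes detected differed between the cell types. Ctsc was in 91.9 to 95.7% and Icam1 in 36.3 to 40.9% of microglia, against 27.3 to 46.2% and 1.52 to 9.29% of members. Vwf was in 17.4 to 45.5% of members and at most 2.54% of microglia. The microglial share therefore gives no background level, and what the members' share reflects was not tested. After thinning every cell to 1000 UMIs, which 121, 525, 1105 and 1256 members reached, the arterial-side shares were 4.96, 5.52, 8.87 and 8.76%. The thinned venous-side shares were 8.26, 5.52, 14.6 and 8.84%, against 4.84, 5.50, 8.21 and 7.89% of microglia. These shares have no test.

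Sprouting members (Apln, Esm1, Angpt2, Pgf, Plaur, Dll4) made up 3.79, 11.8, 12.7 and 2.90%, or 0, 3.24, 4.89 and 0.796% after thinning, so that 1 library of each genotype was high. In microglia the share was at most 1.78%. Cycling members (8 mitotic genes) numbered 0 of 132, 16 of 570, 13 of 1217 and 12 of 1380. The absence in Flox control 1 allows a share of up to 2.27% by a floor of 3 counts (2.76% as the upper bound of the exact binomial interval), and the other shares were 2.81, 1.07 and 0.870%, far below the 20.7 to 26.6% of microglia. Cell cycle genes had a median of -0.82 over 17, which was 0.60 without Flox control 2 and -0.07 after thinning. Angpt2 had a UMI in 8.33, 13.3, 19.1 and 7.54% of members and Esm1 in at most 0.411%.

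Sprouting members also differed from the other members in depth and in genes that did not define them. Their median was 4249, 5558, 3061 and 5038 UMIs, against 2841, 2437, 2019.5 and 2106 in the others. Plaur, a gene of their list, had a UMI in 5.30, 16.1, 24.7 and 8.48% of members and in 26.8 to 37.5% of microglia. The part of depth and of transcripts from other cells was not tested. Sprouting members held more Ccnd1, a cyclin, and more Adamts1, a matrix protease, in all 4 libraries, with log2 ratios over all libraries of 2.06 and 0.99. Their level of Spock2 was lower in all 4 libraries, at a log2 ratio of -1.38, as was that of Tfrc at -1.50. Spock2 is a capillary gene of the rule that chose the members, and Flox control 1 held only 5 sprouting members. Each of these ratios pools the UMIs of all libraries, so its size also holds differences between the libraries. Sprouting members numbered 5, 67, 155 and 40, against 127, 503, 1062 and 1340 other members. Cells of 1 library share their source, so these ratios are descriptions.

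**Figure D5:**
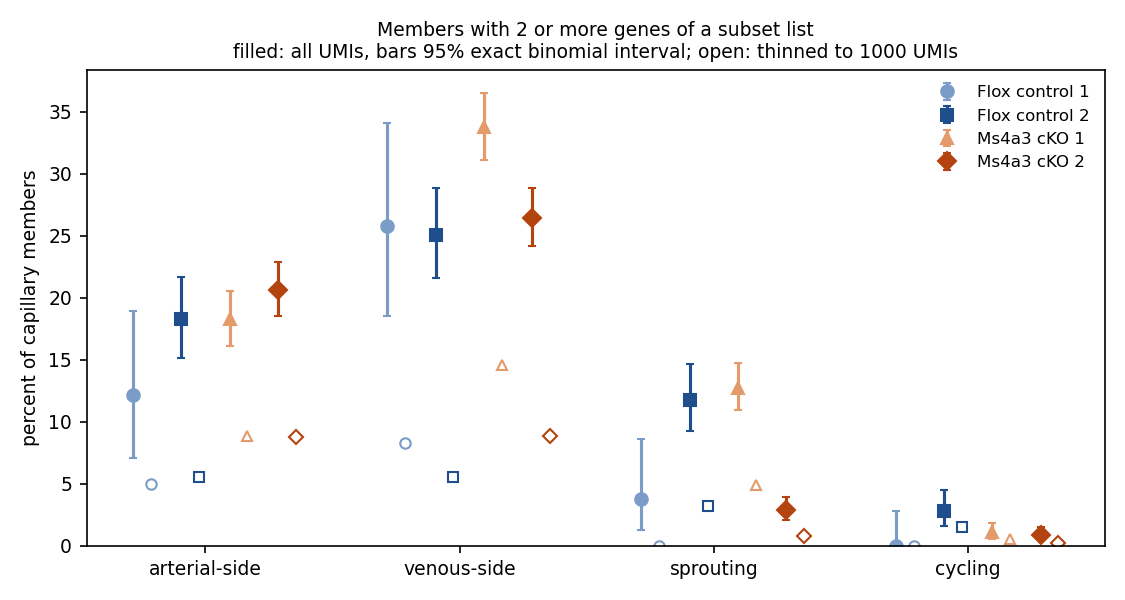
Share of capillary members (percent) with at least 2 genes of each subset list, per library; filled points use all UMIs with 95% exact binomial intervals, which cover counting error only, and open points follow thinning to 1000 UMIs. Sprouting members are frequent in Flox control 2 and Ms4a3 cKO 1, at 11.8 and 12.7%, and rare in the other libraries.

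The last comparison asked whether the genotype effect differed between capillary members and microglia of the same libraries, in 1 fit with the library as a block. With edgeR's test 0 of 15042 genes passed (0% called), and 978 had an unadjusted p below 0.05. Leaving out Flox control 1 or 2 gave 168 or 255 calls, leaving out Ms4a3 cKO 1 or 2 gave 78 or 71, and thinning every cell to 1000 UMIs gave 112. The gene with the smallest p was Ddit4, a stress-induced inhibitor of mTOR that glucocorticoids also raise. In members it was level, at 316, 280.1, 300.2 and 265 CPM. In microglia it stood at 8.51 and 10.5 against 61.4 and 75.5 CPM, and the effect in members minus that in microglia was -2.71 on the log2 scale (SE 0.24, adjusted p = 0.0594).

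P2ry1, a receptor for ADP, had an effect of 1.03 (SE 0.40) in members and of -2.55 (SE 0.33) in microglia, a difference of 3.56 (SE 0.32, adjusted p = 0.0594). Aldh2, an aldehyde dehydrogenase, and Mgst1, a glutathione transferase, were also higher in cKO members and lower in cKO microglia. Their effects were 1.12 and 0.81 in members and -1.01 and -1.65 in microglia, and the differences of 2.17 and 2.39 had an adjusted p of 0.0892 each. Nek7 was level in microglia, at 316, 371, 313 and 357 CPM, with a difference of 2.23 (SE 0.25, adjusted p = 0.0892). Nrep had an effect of -0.89 in microglia and a difference of -1.88 (SE 0.20, adjusted p = 0.0892). None of these differences passed the adjusted threshold. The same comparison with Ackr1 or Selp endothelium was not made, since Flox control 1 held only 11 such cells, under the minimum of 50.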

How the data were processed

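Single-cell libraries of 4 samples were analysed; groups came from the sample titles. Per the submitters' processing notes, reads were handled with fastp 0.24.0 and STARsolo on mm10 (annotation and barcode filter: not given in the sources used here). Files deposited hold raw UMI counts of 31253 genes by barcode. The members and gene lists were chosen with earlier results of these data known. Doublets were predicted with Scrublet in scanpy 1.11.5 (expected rate 6%) and kept. Counts were summed per library and tested with edgeR 4.0.16 (quasi-likelihood, TMM, filterByExpr) in R 4.3.3. Benjamini-Hochberg adjustment ran over all genes tested, with a threshold of 0.05. The test was also run on counts simulated from a common mean profile with known changes. No simulated library stood apart as Flox control 1 does, so that run does not cover this feature of the data. DESeq2 1.42.0 was an alternative. SEs derive from the F statistic. Members' UMIs ranged from 454010 to 3654545 per library. The text names the rule's genes, Htr2b and Ms4a3, the 12 genes with the smallest p and a mean of at least 20 CPM (fewer than 10 having passed), from each list up to 4 with the smallest p and 3 with the highest level, and the 6 with the smallest p against microglia, leaving out sex-linked genes and Gm or Rik symbols; Rgs5, Dcn, Pdgfra and Vcam1 and the subset contrasts' genes were named after their values were seen. Some items under these rules are not reported here. Replicate numbers were not used to pair the libraries in the main fit. Deviations from the group means correlated at -0.125 between same-numbered libraries. With 2 libraries a genotype this is a single value, which cannot show whether the libraries were paired.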

Additional observations from a re-analysis of the deposited data

How the results depend on the processing

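With 2 libraries a genotype and 132 members in Flox control 1, only large differences could pass, and single libraries set the number of calls. The 6 genes called became 74 with DESeq2, 502 without a filter on low counts, 0 with at least 4 endothelial and 2 capillary genes, and 2 without members holding Dcn, Lum or Pdgfra. With 1 library left out they ranged from 0 to 321; the lone library is then assumed to vary like the other group. The replicate block left 4 calls; a crossed block, added after the negative correlation of same-numbered libraries was seen, gave 23. All other settings gave 4 to 9. No gene passed against microglia, but 112 did after thinning and 71 to 255 with 1 library left out. The log2 ratio of capillary shares was 1.92, and 1.28 to 3.10 with 1 library left out; other filters gave 1.88 to 2.08, and leaving microglia out of the denominator gave 1.87. As a share of barcodes with at least 3 endothelial genes it was 0.076, with the groups overlapping. Of 70 genes given with a fold change, 4 changed sign under some setting: with 1 library left out Ifit1 (-2.06 to 0.33) and B2m (-1.58 to 0.36), both positive without Flox control 1, F3 (1.32) without members holding fibroblast genes, and Ddit4, at 0.0055 with under 10% mitochondrial UMIs and between -0.16 and 0.020 with 1 library left out. Of 27 list medians, 16 changed sign under some setting. The causes were not tested.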
